A study of Mus musculus with 30 samples.

Results

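The MOR267 genes around Olfr16 are 6 odorant receptor (OR) genes that lie together on chromosome 1: Olfr16 (also called MOR23), Olfr1408, Olfr1406, Olfr218, Olfr1404 and Olfr418-ps1. They were chosen by name and position, as the MOR267 genes of a 314 kb stretch. That rule uses no values, although earlier results of these data were known when the choice was made. They make up 6 of the 564 OR genes of the panel, and 6 of its 11 MOR267 genes. Their RNA was counted with NanoString probes in whole olfactory mucosa of 30 mice, 21 days old, with 1 μg of RNA from 1 mouse in each lane. The lanes fall into 5 groups of 6 mice. Wild-type 129SvEvTac mice from Charles River Laboratories, Germany (4 females, 2 males) shared cartridge MK38 with mice homozygous for ΔOlfr7Δ (2 females, 4 males). ΔOlfr7Δ is an inbred 129SvEv strain that lacks the Olfr7 cluster of OR genes. The labels name the wild-type 129 mice by vendor and not as companions of ΔOlfr7Δ, so origin and genotype cannot be told apart there. The other 18 mice had a mixed background of C57BL/6J and 129SvEv. Of these, 6 were ΔHxΔP mice (1 female, 5 males), homozygous for the deletion of both the H and the P element, which act on clusters of other OR genes. They shared cartridge MK29 with 6 wild-type companions of that cross (3 females, 3 males). The last group, on cartridge MK37, held 6 wild-type companions of the ΔH strain (4 females, 2 males). Mutants always had lanes 7 to 12 of their cartridge and wild-type mice lanes 1 to 6, so lane and genotype cannot be told apart on MK38 and MK29.

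A mature olfactory sensory neuron expresses a single OR gene, chosen from a very large family that is spread over many clusters, and usually from a single allele. The level of an OR gene in RNA of the whole mucosa therefore combines how many neurons have chosen the gene with how much RNA each of them holds, and these cannot be told apart here. Olfr16 is known as a receptor for the odorant lyral. The other members are named from their sequence, and no ligand is given for them here. The suffix of Olfr418-ps1 marks it as a pseudogene, whereas RefSeq (GRCm38.p6) types all 6 members as protein coding and calls the last one Olfr418.

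Coordinates are those of the OR table of the study, for which the sources used here name no genome build. The members lie on chromosome 1 in the order Olfr16 (174886899 to 174887948, forward, MOR267-13), Olfr1408 (175060414 to 175061346, reverse, MOR267-4), Olfr1406 (175113631 to 175114563, reverse, MOR267-5), Olfr218 (175133489 to 175134430, forward, MOR267-3), Olfr1404 (175145738 to 175146771, forward, MOR267-2) and Olfr418-ps1 (175200278 to 175201268, forward, MOR267-8 and MOR267-12P). Olfr16 stands 172 kb from its neighbour Olfr1408. The other gaps are 11.3 to 53.5 kb. RefSeq lists 8 OR genes in the stretch, and the 2 that the panel did not measure are both pseudogenes. The nearest measured OR genes outside it are Olfr433, 771 kb beyond Olfr418-ps1, and Olfr1410, which is 80.4 Mb before Olfr16.

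Each gene was read by a reporter and a capture probe of about 50 bases, and what a probe pair can tell apart bears on every value given here. The 2 probes are shown joined, reporter first, written as deposited. The pairs of Olfr1408 and Olfr1406 read the same stretch of these related genes, and the capitals mark the 15 of 100 bases at which they differ, 8 in the reporter and 7 in the capture probe.
Olfr1408: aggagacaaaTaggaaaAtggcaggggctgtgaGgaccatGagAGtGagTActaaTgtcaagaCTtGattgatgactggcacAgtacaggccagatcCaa
Olfr1406: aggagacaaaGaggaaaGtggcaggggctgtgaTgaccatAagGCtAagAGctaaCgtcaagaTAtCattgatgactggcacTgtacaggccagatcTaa
The pairs of Olfr218 and Olfr1404 overlap by 86 bases with a shift of 14, and there the capitals mark the 22 bases that differ.
Olfr218: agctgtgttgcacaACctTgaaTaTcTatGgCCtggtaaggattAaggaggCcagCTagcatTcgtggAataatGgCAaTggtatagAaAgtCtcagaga
Olfr1404: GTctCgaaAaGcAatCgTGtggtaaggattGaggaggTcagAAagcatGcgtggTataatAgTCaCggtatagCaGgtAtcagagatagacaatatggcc
The pairs of Olfr16 and Olfr418-ps1 have no close relative in the panel and are shown for the 2 members with the clearest shift in ΔOlfr7Δ mice.
Olfr16: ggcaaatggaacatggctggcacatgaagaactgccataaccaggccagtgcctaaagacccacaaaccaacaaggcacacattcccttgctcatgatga
Olfr418-ps1: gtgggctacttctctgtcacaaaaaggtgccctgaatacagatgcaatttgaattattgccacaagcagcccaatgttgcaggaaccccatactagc
In the best ungapped match of at least 80 bases, Olfr1408 and Olfr1406 were 85.0% identical and Olfr218 and Olfr1404 74.4%. The best match of Olfr16 to any other OR probe pair was 51.3%, and that of Olfr418-ps1 was 51.7%. For the paired members, the next closest gene had at most 54.1%. The longest run of bases shared by Olfr1408 and Olfr1406 was 15, and by Olfr218 and Olfr1404 it was 11. Genes outside the panel were not searched. Cross-hybridization was not tested.

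Counts were scaled in each lane by the positive controls and by 5 genes of mature olfactory sensory neurons (Omp, Cnga2, Adcy3, Ano2 and Gnal), and the values are called scaled counts. They are not compared between genes, since probe pairs differ in efficiency. The 5 neuron genes were high in every lane, with group means of 6205 for Ano2 in wild-type 129 mice at the lowest, as befits this tissue. Summed OR counts per lane, before scaling, lay between 618163 and 1013430. On MK38 they were higher in ΔOlfr7Δ mice (833993 to 1013430, median 939028) than in most wild-type 129 mice (618163 to 855414, median 757374). The negative controls put the background (their mean with 2 SD added) at 32.4 to 56.2 scaled counts, and every member was far above it in each lane. The raw counts of the members ran from 444 to 2994, so counting error alone was 1.83 to 4.75% of a value. The coefficient of variation between the mice of a group ran from 4.48 to 26.8%. As a check of the genotypes, the gene that fell most was Olfr965 in ΔOlfr7Δ mice (log2 FC -6.96) and Olfr1507, a known target of the H element, in ΔHxΔP mice (-7.63). The labels describe separate mice, so the spread is between animals.

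**Figure D1:**
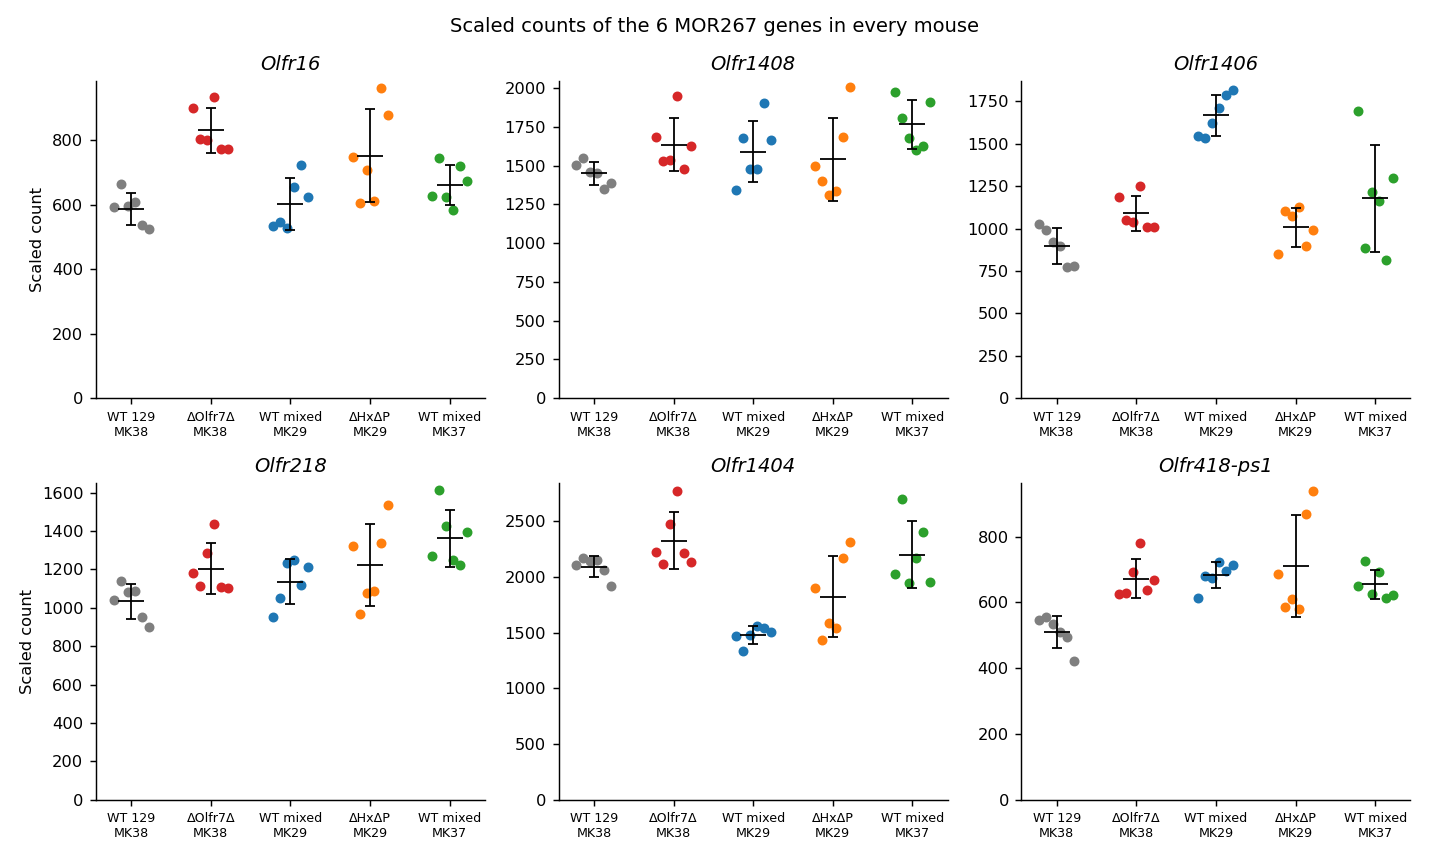
Scaled counts (linear axis from 0) of the 6 members in 5 groups of mice. Each point is a mouse, and the bar and whiskers are the mean ± SD of 6 mice. ΔOlfr7Δ mice lie above all wild-type 129 mice for Olfr16 and Olfr418-ps1, and the wild-type mice of MK29 stand apart as high for Olfr1406 and low for Olfr1404.

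Olfr16, at the edge of the stretch, had 524 scaled counts in the lowest, 594 in the median and 663 in the highest of the 6 wild-type 129 mice, against 772, 801 and 934 in ΔOlfr7Δ mice. In the wild-type mice the lowest, median and highest counts were 529, 586 and 724 on MK29, and 583, 651 and 744 on MK37. In ΔHxΔP mice they were 605, 729 and 962. All ΔOlfr7Δ mice lay above every wild-type mouse of the 3 wild-type groups, while ΔHxΔP mice overlapped with each group. Ordered by their means, the groups ran from ΔOlfr7Δ (830.3 ± 68.8, SD, n = 6) over ΔHxΔP (752 ± 144) and wild-type MK37 (662 ± 61.9) to wild-type MK29 (602 ± 79.5) and wild-type 129 (587 ± 50.4). Each group overlapped with the next in this order.

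Olfr1408, the next gene, was the steadiest of the 6 across the groups. Its lowest, median and highest scaled counts were 1348, 1457 and 1548 in the wild-type 129 group and 1477, 1582 and 1947 in the ΔOlfr7Δ group. On MK29 the wild-type mice had 1342, 1570.1 and 1901 and the ΔHxΔP mice 1311, 1448 and 2009, and on MK37 the wild-type mice had 1600.0, 1741 and 1974. Of the 10 pairs of groups only 1 was free of overlap, with all wild-type MK37 mice above all wild-type 129 mice. The means ran from 1766 ± 156 in wild-type MK37 mice over ΔOlfr7Δ (1634 ± 171), wild-type MK29 (1589.6 ± 198) and ΔHxΔP (1539.7 ± 267) to 1450.2 ± 73.1 in wild-type 129 mice, and neighbours in this order overlapped.

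Olfr1406, whose probes are the closest to those of Olfr1408, had the strongest differences among mixed mice. The lowest, median and highest scaled counts were 1533, 1666 and 1818 in the wild-type mice of MK29, but 849, 1034 and 1129 in the ΔHxΔP mice of the same cartridge. In the wild-type mice of MK37 they were 812, 1190.5 and 1692. The wild-type mice of MK29 were above every mouse of 3 other groups, and only wild-type MK37 reached into their range, with 1 mouse. Wild-type 129 mice had 772, 910.3 and 1029 scaled counts of Olfr1406, and ΔOlfr7Δ mice had 1009, 1044 and 1251. The means fell from 1669 ± 121 (wild-type MK29) over 1179 ± 316 (wild-type MK37), 1090.3 ± 103 (ΔOlfr7Δ) and 1007 ± 115 (ΔHxΔP) to 899 ± 107 (wild-type 129), with overlap between neighbours.

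The spread of Olfr1406 in wild-type MK37 mice was wide. In descending order of Olfr1406 these 6 mice had 1692, 1301, 1217, 1164, 886 and 812 scaled counts, a 2.08-fold range, whereas the highest of the 6 wild-type MK29 mice was 1.19-fold above the lowest. The SD of log2 in MK37 was 0.39, the place 14 from the largest among 558 OR genes, whose median was 0.12. In the other groups the SD of Olfr1406 was 0.10 to 0.17, in places 63 to 434.

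Olfr218 had 900, 1062 and 1137 scaled counts (lowest, median, highest) in wild-type 129 mice. ΔOlfr7Δ mice had 1100.2, 1148 and 1435.5 scaled counts, with 954, 1163 and 1247 in wild-type MK29 mice. In ΔHxΔP mice it had 966, 1203 and 1537, and in wild-type MK37 mice 1223, 1332 and 1615. Only wild-type 129 and wild-type MK37 mice did not overlap. The order of means was wild-type MK37 (1363 ± 148), ΔHxΔP (1221 ± 213), ΔOlfr7Δ (1204 ± 133), wild-type MK29 (1135 ± 117) and wild-type 129 (1032 ± 90.5), with overlap at each step.

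Olfr1404, 11.3 kb from Olfr218, had its lowest counts where Olfr1406 had its highest. In wild-type MK29 mice it had 1335, 1491 and 1559 scaled counts (lowest, median, highest), and in wild-type MK37 mice 1945, 2100.1 and 2705, with no overlap. ΔHxΔP mice had 1437, 1741 and 2313, wild-type 129 mice had 1918, 2125 and 2175, and ΔOlfr7Δ mice had 2122, 2221 and 2776. The wild-type MK29 mice lay below every mouse of the 2 groups of MK38 as well and overlapped with ΔHxΔP mice alone. The means ran from ΔOlfr7Δ (2326 ± 255) over wild-type MK37 (2202 ± 301), wild-type 129 (2093 ± 93.7) and ΔHxΔP (1825 ± 361) to wild-type MK29 (1482 ± 80.5), again with overlap between neighbours.

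Olfr418-ps1 was read well above background in all mice although its symbol marks a pseudogene. It had 422, 523 and 554 scaled counts (lowest, median, highest) in wild-type 129 mice. ΔOlfr7Δ mice had 625, 653 and 780.0 scaled counts, with 613, 687 and 722 in wild-type MK29 mice. ΔHxΔP mice had 579, 647 and 938, and wild-type MK37 mice 614, 637 and 725. Wild-type 129 mice lay below all mice of each of the 4 other groups. The 4 other groups overlapped with each other, with means of 711 ± 155 (ΔHxΔP), 683 ± 39.2 (wild-type MK29), 672 ± 58.9 (ΔOlfr7Δ) and 655 ± 44.6 (wild-type MK37), against 510.1 ± 48.4 in wild-type 129 mice.

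The first comparison asks whether the MOR267 genes differ when the Olfr7 cluster, on another chromosome, is absent. Of the 6 members, 4 rose in ΔOlfr7Δ mice and none fell. Over all 552 OR genes tested, 23.4% were called higher and 12.1% lower (limma, Benjamini-Hochberg adjusted p under 0.05). These 552 include genes of the deleted Olfr7 cluster, so the share called lower contains genes that ΔOlfr7Δ mice lack. Olfr16 rose by 0.50 ± 0.08 (log2 FC ± SE; 95% interval 0.34 to 0.65; adjusted p = 5.18e-06), a FC of 1.41. Olfr418-ps1, at the far end of the stretch, rose by 0.40 ± 0.08 (adjusted p = 0.000258), a FC of 1.32. Between them, Olfr1406 rose by 0.28 ± 0.08 (adjusted p = 0.00661) and Olfr218 by 0.22 ± 0.08 (adjusted p = 0.0271). Olfr1408 and Olfr1404 did not pass, with log2 FC of 0.17 (interval 0.03 to 0.31, adjusted p = 0.0592) and 0.15 (interval 0.01 to 0.29, adjusted p = 0.0945). The median log2 FC was 0.25 over the members and 0.06 over all OR genes tested. Ranges did not overlap for 2 of the 6 members, Olfr16 and Olfr418-ps1, both with all ΔOlfr7Δ mice above. The same held for 18.3% of all OR genes, 61 with ΔOlfr7Δ mice above and 40 with them below, deleted genes included.

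The size of this rise depends on the scaling, and its sign does not for any of the 6 members under the 4 scalings tried. With positive controls alone the median log2 FC of all OR genes was 0.24, and the 5 neuron genes were 0.09 to 0.31 higher in ΔOlfr7Δ mice. All 6 members were then called higher, with Olfr16 at 0.68, and 283 OR genes were called higher and 41 lower in place of 129 and 67. With TMM and with median of ratios, both computed over the OR genes, Olfr16 stood at 0.46 and 0.45, and the same 4 members were called. Median of ratios called 108 OR genes higher and 102 lower. Olfr218 lost its call when any of 4 mice was left out (wild-type 129 mouse 5 or 6, ΔOlfr7Δ mouse 3 or 4), with adjusted p up to 0.0795, while Olfr16, Olfr1406 and Olfr418-ps1 were called without each mouse in turn. Olfr1408 passed without wild-type 129 mouse 2 or ΔOlfr7Δ mouse 2 or 5 (0.19, 0.19 and 0.19). In wild-type 129 mice both males lay below all 4 females for all 6 members, and this group held 2 males against 4 in ΔOlfr7Δ mice. The share of all OR genes with this order was not counted. The members also varied together in these mice, so they are not independent of each other. With sex in the model the log2 FC were 0.54 for Olfr16, 0.43 for Olfr418-ps1, 0.34 for Olfr1406, 0.27 for Olfr218, 0.18 for Olfr1408 and 0.17 for Olfr1404, and 5 members passed, all but Olfr1404.

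The test named in the methods of the study, tTREAT, asks whether a FC exceeds a threshold. None of the 6 members passed it at a threshold of 1.3 and an unadjusted p of 0.01, against 7.07% of OR genes. In the study, nearly all genes called at this threshold belonged to the deleted cluster. In the form of tTREAT used here, the p of Olfr16 was 0.0159. This form sums both tails, whereas the study describes doubling the nearer tail, so p here is never larger than by that description. Without a threshold (a FC of 1), 3 of the 6 members passed tTREAT, namely Olfr16, Olfr1406 and Olfr418-ps1, beside 31.2% of OR genes. Unlike the limma fits, tTREAT was run on scaled counts from which the background had been subtracted.

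**Figure D2:**
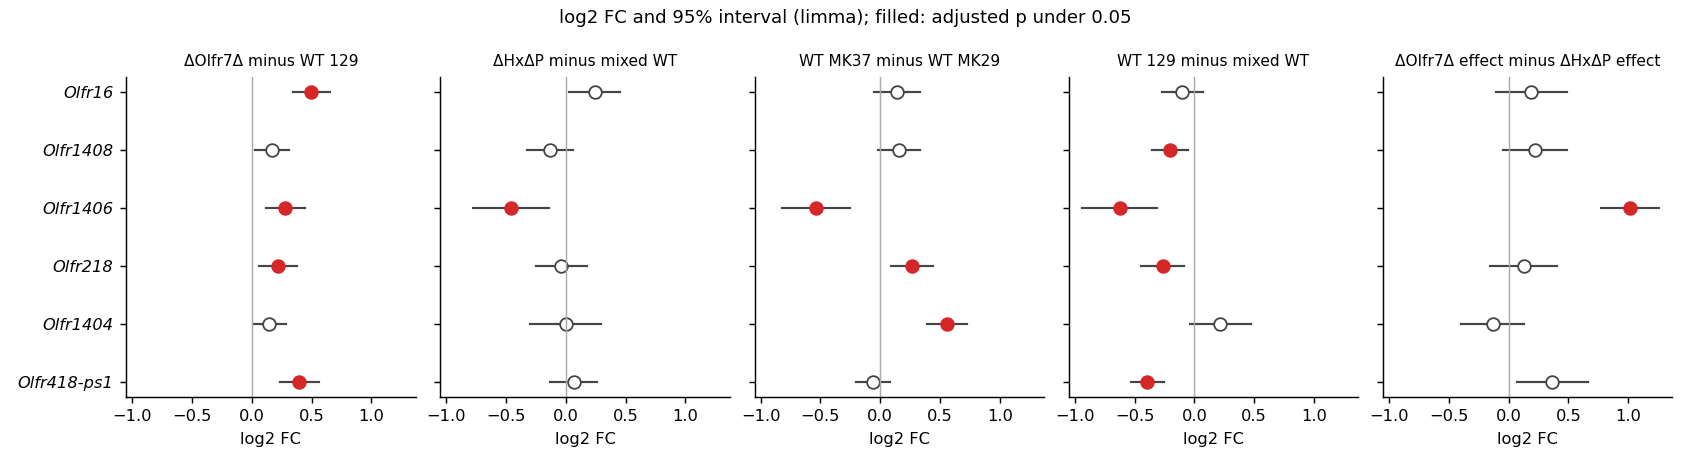
log2 FC (horizontal axis) with 95% intervals from limma for the 6 members in 5 comparisons. Filled points have an adjusted p under 0.05. Olfr16 has the highest log2 FC in ΔOlfr7Δ mice (0.50), and Olfr1406 lies farthest from 0 in the contrast of the 2 mutant effects (1.01).

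The next comparison asks the same for the absence of the H and P elements, with the 6 ΔHxΔP mice against the 12 mixed wild-type mice. Olfr1406 was the 1 member called, lower by a log2 FC of -0.46 ± 0.15 (adjusted p = 0.0248), beside 23.9% of 557 OR genes called lower. No member was called higher, beside 10.2% of OR genes. The OR genes tested include those of the H and P clusters, on which the deleted elements act. Olfr16 had a log2 FC of 0.24 ± 0.10 (interval 0.02 to 0.45, adjusted p = 0.0788). The other 4 members had log2 FC between -0.13 and 0.06, and the interval of Olfr1404 reached from -0.30 to 0.29. The median was -0.02 over the members and -0.06 over all OR genes tested. tTREAT passed none of the members with a threshold of 1.5, against 4.31% of OR genes, and none without a threshold, against 28.2%.

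The fall of Olfr1406 in ΔHxΔP mice depended on which wild-type mice it was compared with. Against the wild-type mice of the same cartridge, MK29, its log2 FC was -0.73 (adjusted p = 2.61e-06) with no overlap. Olfr1406 was the 1 member of 6 without overlap there, beside 14.9% of OR genes. Against the wild-type mice of MK37 it was -0.19 (adjusted p = 0.304). The call was also lost, at a size near that of -0.46, with sex in the model (-0.44), with TMM (-0.41), with median of ratios (-0.38) and without ΔHxΔP mouse 1 (-0.41) or 5 (-0.43). For Olfr1404 the sign turned with the wild-type group, from 0.28 against MK29 to -0.28 against MK37, and neither passed. Olfr16 had 0.31 against MK29 and 0.17 against MK37. It was called higher with TMM (0.29) and median of ratios (0.32), and without ΔHxΔP mouse 2 (0.30) or 4 (0.29). Over all OR genes the split of 57 higher and 133 lower moved to 63 and 88 with positive controls alone, 105 and 114 with TMM and 122 and 103 with median of ratios.

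ΔHxΔP mice had the widest spread of the 5 groups in each member but Olfr1406, with SD of log2 from 0.24 to 0.30. The median SD over all OR genes was also highest there, at 0.18. Mice 5 and 6 of the group were among the 2 highest for 5 of the 6 members each. For Olfr418-ps1 they had 868 and 938 scaled counts, while the other 4 lay between 579 and 686. For Olfr1404 they had 2173 and 2313, above the 1437 to 1898 of the other 4. For Olfr1406 the order differed, as these mice had 895 and 994 against 849 to 1129. The highest ΔHxΔP mouse was 1.53- to 1.62-fold above the lowest for each member but Olfr1406, where it was 1.33-fold.

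The wild-type mice of the 2 mixed cartridges differed from each other, which gives the size of differences that come with companion strain or cartridge. These cannot be told apart, since each companion strain had its own cartridge. In MK37 against MK29, Olfr1404 was higher by 0.56 ± 0.08 (adjusted p = 4.28e-05) and Olfr218 by 0.26 ± 0.08 (adjusted p = 0.0184), so that 2 of 6 members were called higher beside 29.3% of OR genes. Olfr1406 was lower by a log2 FC of -0.54 ± 0.13 (adjusted p = 0.00432), 1 of 6 beside 10.8%. Olfr16 (0.14), Olfr1408 (0.16) and Olfr418-ps1 (-0.06) did not pass. Olfr1404 was the 1 member of 6 whose ranges did not overlap, beside 20.1% of OR genes. The call of Olfr218 was lost with TMM (0.17) and with median of ratios (0.15), and Olfr418-ps1 was then called lower at -0.16 and -0.17. Those scalings moved the median of all OR genes from 0.10 to 0.00 and -0.01, and the split from 163 higher and 60 lower to 108 and 114 and to 95 and 119. With positive controls alone the split was 216 and 32, and Olfr1408 was called higher as well (0.25).

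Wild-type 129 mice were compared with the 12 mixed wild-type mice to see how the members differ with background. Cartridge and origin (a vendor against companion strains) differ here as well, so these cannot be told apart from background. Of the 6 members, 4 were lower in wild-type 129 mice, beside 37.2% of 543 OR genes, and none was higher, beside 33.5%. Olfr1406 had the largest log2 FC, -0.63 ± 0.15 (adjusted p = 0.000953). Olfr418-ps1 followed with -0.39 ± 0.06 (adjusted p = 1.46e-05), Olfr218 with -0.27 ± 0.09 (adjusted p = 0.00949) and Olfr1408 with -0.20 ± 0.07 (adjusted p = 0.0158). Olfr16 did not pass (-0.10, interval -0.27 to 0.07, adjusted p = 0.268). Olfr1404 had a log2 FC of 0.22 (interval -0.04 to 0.47, adjusted p = 0.118) and was called higher with TMM (0.23) and median of ratios (0.25). After scaling, the neuron genes used as reference themselves ranged from -0.21 (Ano2) to 0.13 (Adcy3) in this comparison. With positive controls alone the split over all OR genes moved from 182 higher and 202 lower to 129 and 216. Olfr418-ps1 was the 1 member of 6 with no overlap between wild-type 129 mice and all 12 mixed mice, beside 38.5% of OR genes.

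The mixed wild-type groups gave different accounts of this comparison too. Against MK29 alone, Olfr1406 stood at -0.90 and Olfr1404 at 0.50, both called. Against MK37 alone, they stood at -0.36, still called, and at -0.06, which did not pass. Olfr418-ps1 held at -0.42 and -0.36. Olfr1408 and Olfr218 were not called against MK29 alone (-0.12 and -0.13), whereas against MK37 alone they were at -0.28 and -0.40, and Olfr16 was called lower too, at -0.17 (adjusted p = 0.0481).

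Whether the 2 mutations differ in their effect on the members was tested in the 24 mice of MK38 and MK29, as the difference of each mutant from the wild-type mice of its own cartridge. Olfr1406 differed by a log2 of 1.01 ± 0.12 (interval 0.77 to 1.26, adjusted p = 2e-08), the sum of its rise in ΔOlfr7Δ mice and its low counts in ΔHxΔP mice against the high wild-type MK29 mice. It was the 1 member of 6 called with a positive difference, beside 21.3% of 544 OR genes. None had a negative one, beside 12.5%, and the 544 genes include some of the Olfr7, H and P clusters. Olfr1406 kept its call under each of the 32 alternatives, none of which put the wild-type mice of MK37 in place of those of MK29. In ΔHxΔP mice the log2 FC of Olfr1406 was -0.73 against MK29 but -0.19 against MK37 (limma, adjusted p = 0.304). For Olfr16 the difference was 0.19 (interval -0.11 to 0.49, adjusted p = 0.348), so a larger rise in ΔOlfr7Δ than in ΔHxΔP mice was not shown. Olfr418-ps1 was just short of the threshold (0.36, interval 0.07 to 0.66, adjusted p = 0.0518) and was called with each of the 3 other scalings, and without ΔHxΔP mouse 5 or 6, wild-type MK29 mouse 1 or wild-type 129 mouse 2 (0.39 to 0.45). Without ΔHxΔP mouse 6, Olfr1408 was called as well (0.30). The other scalings moved the split of 116 positive and 68 negative calls to 138 and 46 (positive controls alone), 115 and 89 (TMM) and 98 and 94 (median of ratios). The other 3 members had differences of -0.13 to 0.22. The 2 mutants also differ in background, in cartridge and in the origin of their wild-type mice. Effects of these cannot be told apart from those of the mutations.

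Ratios between members within a lane do not depend on the scaling. On MK29 the wild-type mice had a ratio of Olfr1406 to Olfr1404 of 1.05 to 1.21. It was 0.374 to 0.489 in wild-type 129 mice, 0.419 to 0.532 in ΔOlfr7Δ mice, 0.412 to 0.768 in ΔHxΔP mice and 0.328 to 0.836 in wild-type MK37 mice. Every wild-type MK29 mouse was thus above every other mouse of the study, while the other 4 groups overlapped, and wild-type MK37 mice spread over the whole range of both groups of MK38. The ratio of Olfr1406 to Olfr1408, the gene with the most similar probes, set the wild-type MK29 mice apart as well, with 0.913 to 1.16 against 0.491 to 0.857 in the wild-type mice of MK37, 0.495 to 0.844 in ΔHxΔP mice, 0.561 to 0.685 in wild-type 129 mice and 0.620 to 0.703 in ΔOlfr7Δ mice. The ratio of Olfr16 to Olfr1404 was higher in ΔOlfr7Δ mice (0.323 to 0.404) than in any wild-type 129 mouse (0.261 to 0.305). It reached as high or higher in wild-type MK29 mice (0.358 to 0.468) and ΔHxΔP mice (0.380 to 0.447), and was 0.268 to 0.345 in wild-type MK37 mice. The ratio of Olfr16 to Olfr418-ps1, which both rose in ΔOlfr7Δ mice, was 1.16 to 1.44 there and 1.09 to 1.24 in wild-type 129 mice, with overlap. It was 0.785 to 1.04 in wild-type MK29 mice, 0.937 to 1.16 in ΔHxΔP mice and 0.841 to 1.17 in wild-type MK37 mice.

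**Figure D3:**
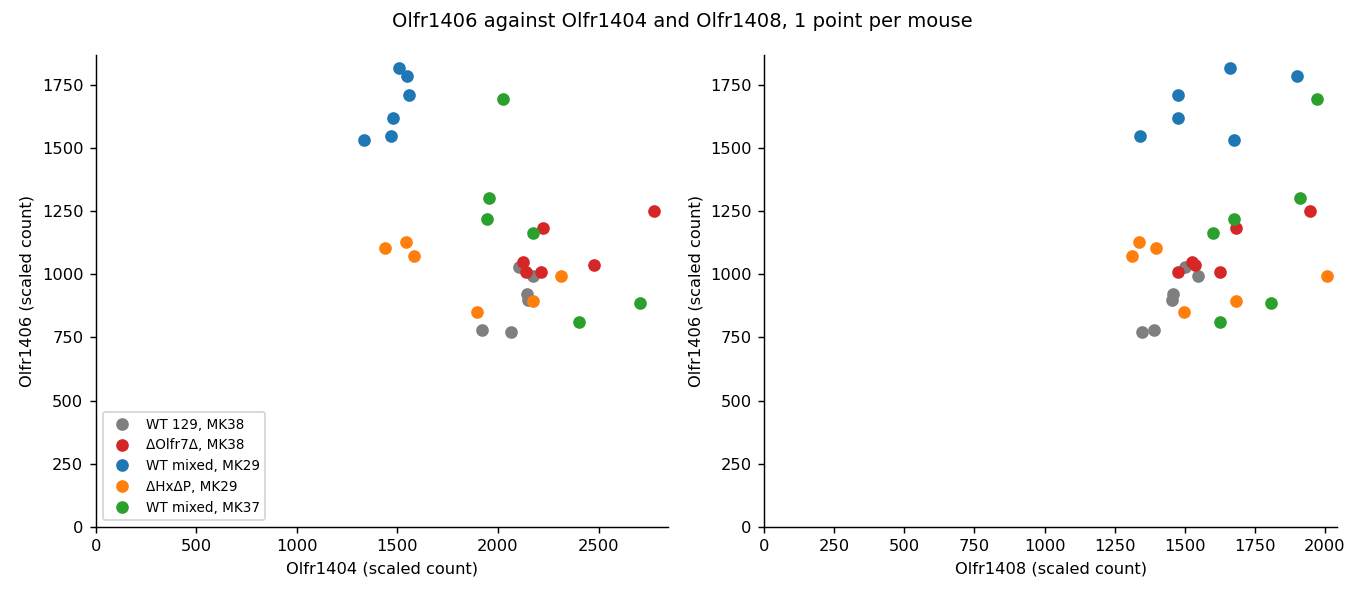
Scaled counts of Olfr1406 (vertical axis) against Olfr1404 (left) and Olfr1408 (right), 1 point per mouse, coloured by group. The wild-type mice of MK29 form a cloud of their own with high Olfr1406, at low Olfr1404 but at ordinary Olfr1408, and the MK37 mice spread from 812 to 1692 in Olfr1406.

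Mouse by mouse, 5 of the 6 members varied together with all groups pooled, though not for every pair within each group. The relation of Olfr1406 to them differed in sign between groups. Correlations were taken over the 30 mice on log2 values minus the group mean, with 100000 permutations within groups and p values adjusted over the 15 pairs. For the 10 pairs without Olfr1406, Pearson's r was 0.53 to 0.84 and Spearman's rho 0.41 to 0.79. All 10 values of r passed (the highest adjusted permutation p was 0.0239), and of rho all but that of Olfr1408 with Olfr1404 (rho = 0.41, adjusted permutation p = 0.0887). The highest was Olfr1404 with Olfr418-ps1 (r = 0.84, permutation p = 4e-05, adjusted 0.0002; rho = 0.75, adjusted 0.0005). Olfr16 had its highest r with Olfr1404 (r = 0.78, permutation p = 2e-05, adjusted 0.00015; rho = 0.73, adjusted 0.000225). After leaving out the 2 mice farthest from the median of the first gene, the 10 values of r were 0.40 to 0.77. Lanes share their scaling, and over all 150426 pairs of the 549 OR genes with values in every lane the median r was 0.18, with 5% above 0.62.

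With the 2 groups of a cartridge pooled, r for the 10 pairs was 0.66 to 0.93 on MK38 and 0.66 to 0.93 on MK29. Taken alone, wild-type 129 mice had 0.66 to 0.97, ΔOlfr7Δ mice 0.50 to 0.98 and ΔHxΔP mice 0.79 to 0.97. The relation was not held throughout by wild-type MK29 mice (0.02 to 0.83) or wild-type MK37 mice (-0.24 to 0.69). For Olfr1406 the r with the other 5 members was -0.34 to 0.29 (rho -0.28 to 0.28), and none passed, the lowest adjusted permutation p being 0.146. Its pooled values join relations of different sign. With all 5 other members r was positive in wild-type 129 mice (0.71 to 0.94), ΔOlfr7Δ mice (0.52 to 0.998) and wild-type MK29 mice (0.54 to 0.83), and negative in ΔHxΔP mice (-0.71 to -0.47). In wild-type MK37 mice the sign depended on the partner, from -0.79 with Olfr1404 and -0.67 with Olfr16 over -0.21 with Olfr218 and -0.17 with Olfr418-ps1 to 0.61 with Olfr1408. These values within groups rest on 6 mice each and are given as a description. In MK37, the 2 mice with the lowest Olfr1406 (886 and 812) had the highest Olfr1404 (2705 and 2404), while the mouse with the highest Olfr1406 (1692) had 2025.

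**Figure D4:**
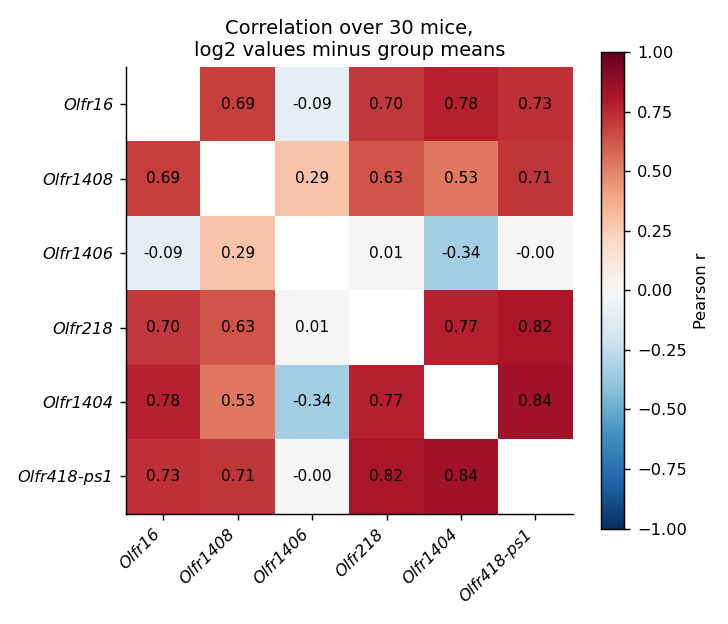
Pearson's r between the 6 members over 30 mice, on log2 values from which the group mean was subtracted. The 10 pairs without Olfr1406 have r of 0.53 to 0.84, and the 5 pairs with Olfr1406 have r of -0.34 to 0.29.

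No difference of the members by sex was shown in the 30 mice together. With group in the model, the log2 FC of males over females was -0.14 for Olfr1406 (interval -0.30 to 0.01) and between -0.07 and 0.05 for the other 5. No member passed, and limma called 0 of 543 OR genes (0%), with 26 at an unadjusted p under 0.05, none of them a member. In wild-type 129 mice both males, in lanes 5 and 6, lay below the 4 females for all 6 members. How many of all OR genes did so was not counted, here or in the groups that follow. In ΔOlfr7Δ and wild-type MK29 mice males and females overlapped for every member. In wild-type MK37 mice males lay below all females for 1 member. In ΔHxΔP mice, with 1 female, all males lay below her for 1 member and above her for 1 member.

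The 5 other MOR267 genes lie elsewhere, Olfr419 on chromosome 1 at 176180115 to 176181056, Olfr479 and Olfr509 on chromosome 7, Olfr370 on chromosome 8 and Olfr63 on chromosome 17. In ΔOlfr7Δ mice 1 of the 5 was called, Olfr419, which rose by 0.33 ± 0.06 (adjusted p = 9.61e-05) without overlap. The other 4 had log2 FC of -0.14 to 0.11, and the median of the 5 was 0.05. In ΔHxΔP mice Olfr63 rose (0.29, adjusted p = 0.0362), and Olfr479 (-0.20, adjusted p = 0.0247) and Olfr370 (-0.19, adjusted p = 0.0206) fell. In wild-type 129 against mixed wild-type mice, Olfr479 was higher (0.28), and Olfr419 (-0.22) and Olfr370 (-0.66, adjusted p = 1e-09) were lower. In MK37 against MK29 wild-type mice, Olfr479 (0.17) and Olfr509 (0.28) were higher, and none of the 5 was called for the difference of the 2 mutant effects. Among the 16 other measured OR genes of chromosome 1, 6 rose and none fell in ΔOlfr7Δ mice, beside the 23.4% higher and 12.1% lower of all OR genes, with a median log2 FC of 0.16 against 0.06. The nearest of them, Olfr433, did not pass there (0.15, adjusted p = 0.0728) and neither did Olfr1410 (0.01).

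The OR genes whose log2 scaled counts were most like those of Olfr16 over the 30 mice, among 542 genes and apart from the members, were Olfr1106 (r = 0.81), Olfr1233 (0.80), Olfr1086 (0.80) and Olfr1104 (0.76) on chromosome 2, and Olfr518 (0.79) on chromosome 7. They are given as a description, with no test, and the median r with Olfr16 over the 542 genes was 0.13. Of the MOR267 genes, Olfr419 had place 11 (r = 0.74), Olfr418-ps1 place 41 (0.63), Olfr1404 place 64 (0.57), Olfr218 place 65 (0.57) and Olfr1408 place 92 (0.50). Olfr1406, in the middle of the same stretch, had place 447 (r = -0.19). All of the 5 most similar genes were called higher in ΔOlfr7Δ mice, with log2 FC of 0.22 to 0.44, as the measure of likeness covers these mice too.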

How the data were processed

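The authors deposited raw NanoString counts per probe and lane, with neither normalization nor background subtraction. All 30 lanes were scaled together, with geometric means taken of the 6 positive controls and, in a second step, of the 5 neuron genes used as reference. An OR gene was tested if its median in the wild-type mice of the comparison was 100 or more once the background of each lane had been subtracted. Log2 values (pseudocount 1) were fitted with limma 3.58.1 (R 4.3.3) with its trended prior, and p values were adjusted by Benjamini-Hochberg over all OR genes tested, with 0.05 as the limit. SE and intervals are those of limma. tTREAT was rewritten from its description, except that p is the sum of both tails and not the nearer tail doubled. The members and lists were chosen with earlier results of these data known, including counts of MK38 in the example file of the study. Named genes are the members, the other MOR267 genes, the nearest measured OR gene on each side, the 5 OR genes most like Olfr16 and the reference genes. Alternatives were other scalings, background subtraction, a pseudocount of 10, no filter, no trend, sex as a covariate, either mixed wild-type group alone and leaving out each mouse. Probe sequences came from the deposited table, and gene types from RefSeq (GRCm38.p6), where all 6 members were found. Python 3.11.15 and matplotlib 3.10.9 drew the plots.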

Additional observations from a re-analysis of the deposited data

How the results depend on the processing

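The number of members called was 3 to 5 without each mouse in turn for ΔOlfr7Δ against wild-type 129 (4 with all mice), 3 to 4 for MK37 against MK29 (3), 4 to 5 for wild-type 129 against mixed wild type (4), 0 to 2 for ΔHxΔP against mixed wild type (1) and 1 to 3 for the difference of the 2 mutant effects (1), and it was 0 throughout for sex. Olfr1408 was called in MK37 against MK29 without wild-type MK29 mouse 5 (0.21), and Olfr1404 in wild-type 129 against mixed wild type without wild-type MK37 mouse 2 (0.27). The number called for ΔHxΔP was 0 with sex in the model and 0 against MK37 alone. For the difference of effects that number was 3 with positive controls only, and 2 each with TMM, with median of ratios and with background subtraction. tTREAT called 0 members at 1.3 and 1.5 in both comparisons, 3 with no threshold, and 0 to 1 without each mouse, the last an alternative chosen after seeing the data. The 1 call came without wild-type 129 mouse 2, with p taken as the sum of both tails.

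Values that did not pass turned sign as follows, and the cause was not tested. In ΔHxΔP, Olfr218 was 0.00451 with positive controls, 0.0115 with TMM, 0.0398 with median of ratios and 0.0935 against MK29 alone, and Olfr1404 was 0.0400, 0.0469, 0.0752 and 0.278. Without each mouse, Olfr218 ranged from -0.108 to 0.0259, Olfr1404 from -0.0756 to 0.0617 and Olfr418-ps1 from -0.0214 to 0.118. With positive controls, Olfr418-ps1 was 0.0277 in MK37 against MK29. Olfr1404 was -0.0636 in wild-type 129 against MK37 alone. For sex, Olfr1408 was 0.0629 with positive controls, 0.0192 with TMM, 0.0188 with median of ratios and 0.00015 with background subtraction, and Olfr418-ps1 was 0.0345 with positive controls. Without each mouse, Olfr1408 ranged from -0.0353 to 0.0221, Olfr1404 from -0.0141 to 0.0463 and Olfr418-ps1 from -0.0829 to 0.00441. Of 990 member values under alternatives, 902 kept direction and side of the threshold, 14 lost a call, 30 gained one and 44 turned sign. The planned count models were not run. No paired analysis was possible because the labels number no mice across groups.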
